A study of Mus musculus with 2 samples.

Results

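The cells described here are splenic T cells with a high interferon response, chosen by how many of 8 interferon-induced genes were detected in each cell. A barcode counted as a T cell if it had at least 2 unique molecular identifiers (UMIs, the molecules counted per gene) of Cd3e, Cd3d and Cd3g together, no Foxp3, no more than 2 UMIs of Cd79a and fewer than 5 of Lyz2. It also needed 300 or more genes, 500 or more UMIs and a mitochondrial share under 10%. Of these T cells, those with at least 1 UMI of at least 4 of Rsad2, Ifit1, Ifit3, Isg15, Usp18, Oasl1, Cmpk2 and Ifi44 were taken as interferon-high. The rule found 495 cells in the Vehicle library and 155 in the Glutoborin library. These 650 cells came from 4542 T cells of the gate (1925 and 2617) and from 15941 barcodes that passed the quality limits, of 17850 deposited.

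The study compared wild-type (WT) mice that were all given 10000 iRBCs intraperitoneally, an abbreviation the labels do not spell out. One group then received Vehicle and the other Glutoborin, each on days 2 and 4. Spleens were taken on day 5, CD45+ cells were sorted, and droplet libraries (10x Genomics, 3' ends) were sequenced. Each group is 1 library, the labels give neither the number of mice nor what Glutoborin is, and there was no uninfected group, so no difference between the groups could be tested. All intervals are 95% intervals for counting error alone and carry nothing of the spread between animals.

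The libraries held 48526451 UMIs (Vehicle) and 56862506 UMIs (Glutoborin). At or over the mitochondrial limit lay 1515 of 8204 Vehicle barcodes and 393 of 9646 Glutoborin barcodes, so the quality loss differed between the groups, and its part in the group differences was not tested. Of these, 104 and 23 met the T-cell gate, with 3 and 0 interferon-high (exact upper bounds 8.20% and 14.8%). The interferon-high cells had a median of 6992 UMIs in Vehicle and 6610 in Glutoborin, against 6460.5 and 5715.5 in the other T cells of the gate. The doublet caller marked 2.92% and 3.75% of all barcodes past the quality limits. It marked 2 of the Vehicle members and 0 of the Glutoborin members, beside 7 of 1430 and 21 of 2462 other T cells of the gate. The libraries shared 24 barcodes, of which 1 was an interferon-high cell in either library and 0 in both. A small number of members stood apart from the rest. In Vehicle 21 of 495, and in Glutoborin 5 of 155, held over 20000 UMIs or over 30 UMIs of MHC class II genes per 10000. The largest was a Glutoborin cell of 83291 UMIs. Some results that rest on these cells are given with and without them, and others only with the share of UMIs these cells held. The limits that set them apart were chosen after the data were seen.

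Type I interferons bind the Ifnar1-Ifnar2 receptor, and Jak kinases then activate a transcription factor complex that holds Stat2 and Irf9 and binds the interferon-stimulated response element (ISRE) in the promoters of responding genes. Interferon gamma acts through its own receptor on a partly overlapping set, with the guanylate-binding proteins and immunity-related GTPases among its best known targets. In T cells, interferon exposure leaves a transcript pattern of antiviral effectors, nucleic acid sensors and surface proteins such as Ly6a (Sca-1) and Bst2 without needing antigen.

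The genes of the rule encode antiviral proteins and regulators. Ifit1 and Ifit3 belong to a family that binds foreign RNA. Isg15 is a ubiquitin-like modifier, and Usp18 removes it and dampens receptor signalling. Rsad2 (viperin) makes a chain-terminating nucleotide, and Cmpk2, a nucleotide kinase, lies beside it on chromosome 12. Oasl1 is an oligoadenylate synthetase-like protein, and Ifi44 is an interferon-induced protein of less certain function. On the GRCm38 build (GENCODE M21) Rsad2 lies at chr12:26442746-26456452 on the minus strand and Cmpk2 at chr12:26469204-26479837 on the plus strand. Ifit3 lies at chr19:34583531-34588731 and Ifit1 at chr19:34640871-34650009, both on the plus strand. Isg15 lies at chr4:156199424-156200818 on the minus strand.

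Promoter stretches of these genes show the element through which the response is known to run. The core, GAAA, NN (any bases) and GAAA again, was searched on both strands (TTTC, NN, TTTC on the other), overlapping matches allowed, in the 250 bases before each start site of the RefSeq promoter table (GRCm38.p6). Of the rule's genes, 7 are in the table and 4 of them held the core, against 936 of all 27025 genes (3.46%, exact binomial interval 3.25 to 3.69%). The 4 genes with a match are printed below, and Usp18 is the gene of the rule that the promoter table lacks. Each run reads 5′ to 3′ along the gene's strand, with the matched core in capitals.
Rsad2, chr12:26456551-26456584, minus strand: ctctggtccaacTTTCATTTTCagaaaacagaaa
Ifit1, chr19:34640773-34640825, plus strand: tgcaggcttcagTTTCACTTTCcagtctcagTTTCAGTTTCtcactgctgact
Ifit3, chr19:34583361-34583428, plus strand: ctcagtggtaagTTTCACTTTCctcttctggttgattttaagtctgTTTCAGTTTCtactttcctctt
Isg15, chr4:156200863-156200908, minus strand: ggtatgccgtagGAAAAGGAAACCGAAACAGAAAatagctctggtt

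The match in Rsad2 starts 120 bases before the start site. Ifit1 and Ifit3 each hold a pair of matches, at 85 and 104 bases and at 122 and 156 bases. Isg15 holds 3 overlapping matches, between 66 and 78 bases. Outside the rule, the core stood in 11 of 27 matched antiviral effectors, 9 of 10 interferon gamma-induced GTPases and 4 of 10 nucleic acid sensors, but in 0 of 11 genes of naive T cells. A match is a stretch of letters and not a shown binding site.

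The cells carried T-cell transcripts, as the rule requires of Cd3 and as other genes showed. Trac, the T-cell receptor alpha constant gene, was found in 91.3% of the Vehicle members and 95.5% of the Glutoborin members, and Trbc1 or Trbc2 in 99.8% and 99.4%. In each library 1 member had none of the 7 T-cell genes outside the rule that were checked. Of the 4 marker genes of the label, Isg15 was found in 95.2% and 94.8% of the members, Ifit3 in 91.1% and 89.7%, Ifit1 in 88.1% and 81.9%, and Rsad2 in 47.1% and 38.7%. All 4 were found together in 177 Vehicle members (35.8%) and 39 Glutoborin members (25.2%).

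Interferon-high T cells made up 25.7% of the gated T cells in Vehicle (495 of 1925, exact binomial interval 23.8 to 27.7%) and 5.92% in Glutoborin (155 of 2617, 5.05 to 6.90%). The log2 ratio of Glutoborin over Vehicle was -2.12 (-2.39 to -1.86), a share 4.34-fold lower. Since deeper cells show more genes, the 8 genes were also counted after each T cell was thinned to 2000 UMIs. The share was then 5.93% (113 of 1905) in Vehicle and 0.732% (19 of 2597) in Glutoborin, 8.11-fold lower. The thinning left out 20 T cells of each library that held fewer UMIs. The difference grew with the number of genes asked for. At least 6 of the 8 genes were found in 134 Vehicle and 25 Glutoborin cells, a log2 ratio of -2.87, and all 8 in 7 and 0 cells. Transcripts of other cell types also differed between the libraries. After thinning, Igkc, a B-cell transcript, was found in 61.4% of the other Vehicle T cells and 39.0% of the other Glutoborin T cells. The rule counts a gene at 1 UMI, and the part of UMIs from other cells in the shares was not tested.

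The number of the 8 genes found per cell formed a continuous series with no gap at the limit. In Vehicle, from 0 to 8 genes, there were 208, 404, 456, 362, 256, 105, 76, 51 and 7 cells. In Glutoborin the counts were 924, 852, 458, 228, 98, 32, 21, 4 and 0. Just under the limit, with 3 genes, lay 362 Vehicle and 228 Glutoborin cells. Just inside it, with 4 genes, lay 256 and 98. Interferon-high is thus a range cut at a set number of genes; whether the cells also form a cluster was not tested.

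**Figure D1:**
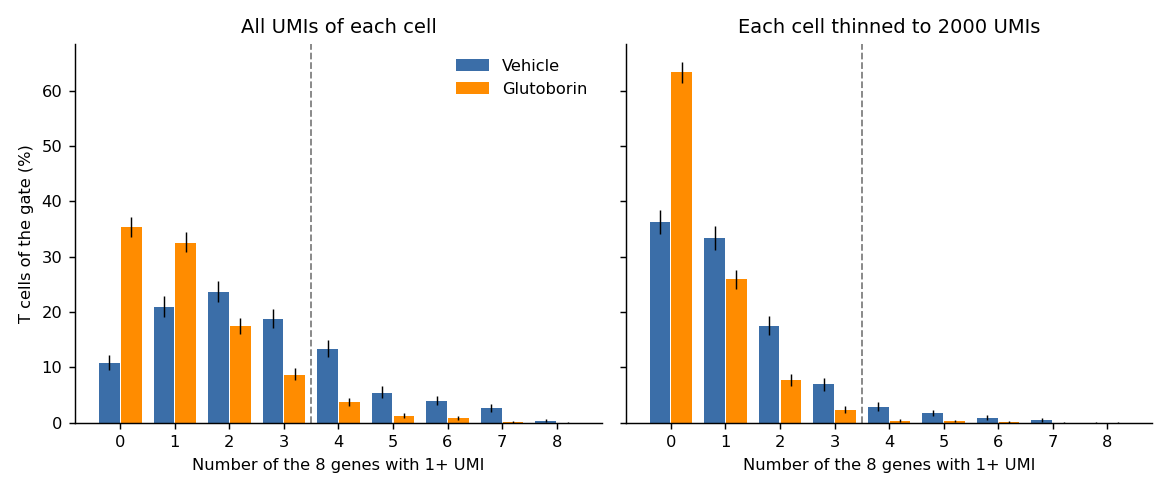
Share of gated T cells of each library (y axis, percent) by the number of the 8 rule genes with at least 1 UMI (x axis), for Vehicle and Glutoborin; error bars are 95% exact binomial intervals. With all UMIs counted, the Vehicle cells peak at 2 genes and the Glutoborin cells at 0. After thinning, the cells of both libraries peak at 0 genes. The limit of 4 genes cuts a continuous slope in both libraries.

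Other cells of the same libraries also differed in the share with 4 or more of the genes. Among Foxp3-positive T cells, the regulatory T cells left out of the gate, it was 21.7% in Vehicle (23 of 106) and 7.34% in Glutoborin (8 of 109). Barcodes with Ncr1 and no Cd3, natural killer-type cells, reached 6.59% (11 of 167) and 1.09% (3 of 274) at median depths of 7708 and 6398 UMIs. Barcodes with Cd79a and no Cd3, of B-cell type, reached 13.8% and 1.16% at median depths of 4736 and 4084 UMIs. Barcodes with Lyz2 and no Cd3, of myeloid type, reached 78.8% and 34.4%, at median depths of 10838 and 9832.5 UMIs. After thinning to 2000 UMIs the Foxp3 shares were 3.81% (4 of 105) and 0.926% (1 of 108). The Ncr1 shares were 1.23% (2 of 162) and 0.738% (2 of 271). Those of the Cd79a class were 3.24% and 0.347%, and those of the Lyz2 class 27.5% and 3.09%. In every one of these classes the Vehicle share was the higher at both depths. After thinning, the intervals of the 2 libraries overlapped for the Foxp3 and Ncr1 classes.

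Cd8b1 was detected in more of the members than Cd4 was. Cd8b1, a chain of the CD8 co-receptor, was found in 252 Vehicle members (50.9%, interval 46.4 to 55.4%) and 92 Glutoborin members (59.4%, 51.2 to 67.2%). Cd4 was found in 162 (32.7%, 28.6 to 37.1%) and 46 (29.7%, 22.6 to 37.5%). Both were found in 6.46% and 7.10%, and neither in 22.8% and 18.1%. In the other T cells Cd8b1 was found in 47.3% and 48.2%, and Cd4 in 32.4% and 27.9%. After thinning, Cd8b1 stood at 38.4% of the Vehicle and 42.6% of the Glutoborin members against 37.7% and 39.2% of the other T cells, with the members still chosen at full depth. Cd4 stood at 16.2% and 12.9% against 15.1% and 12.9%. Thinning lowered the detection of Cd4 in proportion more than that of Cd8b1, so a cell without a Cd4 UMI is not shown to be other than CD4-type. With thinning before the gate and the rule as well, Cd8b1 was found in 35.6% of the Vehicle and 15.0% (3.21 to 37.9%) of the Glutoborin members. Read the other way, 24.2% of Vehicle T cells with Cd4 alone and 26.1% of those with Cd8b1 alone were interferon-high, and 5.57% and 6.89% in Glutoborin. With the 8 genes counted after thinning the order turned, to 6.13% and 5.14% in Vehicle and 1.12% and 0.597% in Glutoborin.

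The levels of the 8 genes themselves chose the cells and are given as a description. Levels are UMIs summed over the cells of a set and scaled to a total of 1000000 (CPM), and each UMI is a 3' end, so genes are not corrected for length. Isg15 was the most abundant, at 706 CPM in the Vehicle members against 179 CPM in the other Vehicle T cells, and at 481 against 92.0 CPM in Glutoborin. Ifit3 stood at 393 against 86.3 CPM and at 261 against 41.1 CPM. Ifit1 stood at 354 against 66.7 CPM in Vehicle and at 304 against 33.7 CPM in Glutoborin. Rsad2 had the largest ratio of the 8, 153 against 10.5 CPM in Vehicle and 77.8 against 4.83 CPM in Glutoborin. Ifi44 was the least abundant, 40.6 against 4.12 CPM and 28.1 against 3.96 CPM. All 8 genes were lower in the Glutoborin members than in the Vehicle members. Ifit3 has a near-identical copy, Ifit3b. Reads that fit both may be missing from the authors' counts of either gene, so both levels are uncertain.

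**Figure D2:**
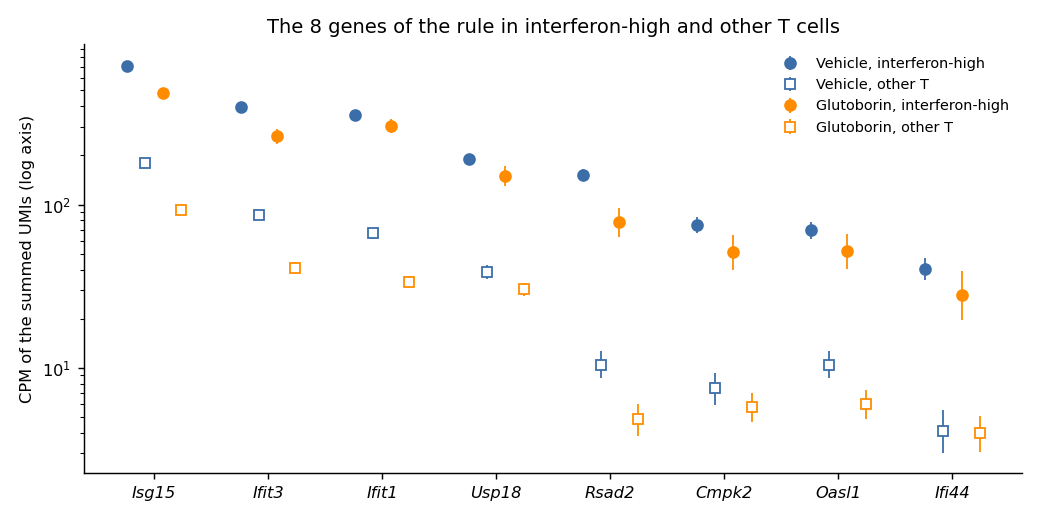
Level of each rule gene (x axis) as CPM of summed UMIs (y axis, log scale) in interferon-high cells (filled circles) and other T cells (open squares) of both libraries; bars are 95% Poisson intervals. The Glutoborin members (Isg15 481 CPM) sit under the Vehicle members (706 CPM) and well above the other T cells of either library.

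The 8 genes were combined in many ways across the members. Isg15, Ifit1 and Ifit3 were all present in 377 Vehicle members (76.2%) and 107 Glutoborin members (69.0%). The commonest single pattern, those 3 genes with Usp18 and no other, took 17.4% and 16.8% of the members. The neighbours Rsad2 and Cmpk2 were found together in 103 Vehicle members, Rsad2 alone in 130, Cmpk2 alone in 80 and neither in 182. In the Glutoborin members these counts were 20, 40, 32 and 63. The highest count of Isg15 in a single member was 112 UMIs in Vehicle and 25 in Glutoborin.

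Interferon-induced genes that the rule did not use were also higher in the members than in the other T cells, widely so for antiviral effectors and sensors and hardly at all for antigen presentation. The same cells gave both values, so these comparisons follow from the choice of cells and show only its breadth. A gene was counted as higher or lower at 1.5-fold or more, among genes with at least 30 UMIs over both sums. Of all 10156 such genes in Vehicle, 5.28% were higher and 3.53% lower in the members. Of 10471 in Glutoborin, 7.81% were higher and 10.8% lower.

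Of 33 listed antiviral effectors outside the rule, 30 were measured, and 27 were higher and 0 lower in the members of each library. Their median log2 ratio was 1.10 in Vehicle and 1.11 in Glutoborin, against -0.01 and -0.02 over all genes. Isg20, an exonuclease that degrades viral RNA, stood at 169.5 against 41.9 CPM in Vehicle and 133 against 29.7 CPM in Glutoborin, log2 ratios of 2.02 (1.84 to 2.19) and 2.17 (1.90 to 2.42). Slfn5, of the Schlafen family, stood at 367 against 92.1 CPM and 199.6 against 66.2 CPM. Oas3, which makes the messenger that activates RNase L, had log2 ratios of 1.27 and 1.86. Eif2ak2, the kinase PKR that stops translation on sensing double-stranded RNA, had 1.42 and 1.39. The measured effectors under 1.5-fold included Adar (0.48 and 0.50) and Ifi27 (-0.21 and -0.27). Ifitm3, an inhibitor of viral entry, had 1.83 and 1.56, but 10 cells held 50.2% of its UMIs in the Vehicle members and 83.6% in the Glutoborin members. The cells set apart held 48.4% and 65.7% of the members' Ifitm3 UMIs, and its ratios without them are not reported here. Without the 10 richest cells of each set the Glutoborin ratio of Ifitm3 was -0.20. That removal took 10 of the 32 Glutoborin members with an Ifitm3 UMI but 10 of 298 such other T cells. Under it 59 genes were higher and 6349 lower in the Glutoborin members, so the value cannot tell a lower level from the uneven removal.

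Nucleic acid sensors followed the effectors, with 11 of 14 measured genes higher and 0 lower in both libraries, at medians of 0.91 and 1.00. Ifih1 (MDA5), a sensor of long double-stranded RNA, stood at 79.7 against 23.3 CPM in Vehicle and 44.1 against 15.7 CPM in Glutoborin. Zbp1, which binds left-handed nucleic acid, stood at 384 against 219.6 CPM and 319.9 against 133 CPM. Of the 16 antiviral Trim and Parp genes, 11 were higher in Vehicle and 9 in Glutoborin. Trim30a had log2 ratios of 0.91 and 1.09, and Parp14 of 0.89 and 1.13.

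Genes best known as interferon gamma targets differed by less. Of 16 GTPases, 6 were higher in the Vehicle members and 9 in the Glutoborin members, with medians of 0.49 and 0.62. Iigp1, an immunity-related GTPase that attacks parasite vacuoles, stood at 297 against 159 CPM in Vehicle and 257 against 128 CPM in Glutoborin. Gbp2 had log2 ratios of 0.59 and 0.98. Of 20 class I presentation genes, 0 were higher in Vehicle and 1 in Glutoborin, H2-T24. H2-K1, a class I heavy chain, stood at 2749 against 2688 CPM in Vehicle and 2580.0 against 2666 CPM in Glutoborin.

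The pathway's own components differed unevenly. Of 15 receptor and signalling genes, 1 was higher in Vehicle (Stat2) and 2 in Glutoborin, and of 7 interferon regulatory factors, 1 (Irf7) and 2. Irf7, which amplifies type I interferon production, stood at 417 against 211 CPM and 345.5 against 134 CPM. Stat2 had log2 ratios of 1.06 and 0.96. Irf9 had 0.21 and 0.26, and Ifnar1 0.25 and -0.17.

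Genes of naive and resting T cells did not separate the sets. Of 14, 0 were higher or lower at 1.5-fold in either library. Ccr7, a lymph node homing receptor, stood at 201 against 190.1 CPM in Vehicle and 196 against 187 CPM in Glutoborin. Of 23 activation genes, 0 were higher and 3 lower in Vehicle, and 1 and 3 in Glutoborin. A separate list of 11 inhibitory receptors and ligands summed to 397 against 294 CPM in Vehicle and 343 against 271 CPM in Glutoborin. Its gene Tigit was at 0 in the interferon-high cells of both libraries, but it was also scarce in the other Vehicle T cells, with 3 UMIs in 3 of 1430 cells. Of this list, Cd274 (PD-L1) stood at 84.3 against 53.1 CPM and 71.4 against 36.5 CPM. Lgals9 stood at 135 against 82.0 CPM and 135 against 63.8 CPM, and the remaining genes are not reported by name here. Cd274 and Lgals9 gave most of the rise of the sum in Vehicle. In Glutoborin they rose by more than the sum did, so the other genes of the list summed to less in the members than in the other T cells. Ly6a (Sca-1) had log2 ratios of 0.51 and 0.52.

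The summed levels of effector genes were lower or mixed. Of the cytotoxic and effector list, 2 of 26 measured genes were higher and 7 lower in the Vehicle members, and 3 and 5 of 27 in the Glutoborin members. Nkg7, a granule membrane protein, stood at 517 against 660 CPM and 503 against 621 CPM. Ccl5, a chemokine of memory and effector cells, stood at 625 against 756 CPM and 1041 against 1197 CPM. After thinning it was detected in 16.6% against 17.7% in Vehicle and 18.1% against 21.1% in Glutoborin. Xcl1, a chemokine that draws cross-presenting dendritic cells, had log2 ratios of -0.49 (-0.67 to -0.31), under 1.5-fold, in Vehicle and -2.57 (-3.25 to -1.96) in Glutoborin. The Glutoborin members held 22 Xcl1 UMIs in 9 of 155 cells. Among granzyme genes, Gzma had -1.19 in Vehicle and 0.48 in Glutoborin, and Gzmb -1.61 and 0.74. In Glutoborin, 1 cell held 249 of 496 Gzma UMIs and 69 of 117 Gzmb UMIs. With the cells set apart left out, Gzma had -0.98 and 0.0045 (-0.19 to 0.19), and Gzmb -1.11 and 0.091 (-0.36 to 0.52). Transcripts of natural killer and gamma-delta T cells were lower too, 4 of 8 in Vehicle and 6 of 8 in Glutoborin. Their summed level was 124 against 168 CPM and 103 against 189 CPM.

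Transcripts of other cell types were present in both sets. Igkc, an antibody light chain that T cells do not make, stood at 494.5 CPM in the Vehicle members and 497 CPM in the other Vehicle T cells, and at 231 and 242 CPM in Glutoborin. It differed between the libraries but hardly between the sets. The B-cell list of 11 genes, none of them at 0, summed to 2593 against 1710 CPM in Vehicle, with 4 genes higher, all in MHC class II presentation. Per cell its medians were 1584 and 1625 CPM, and without the cells set apart 0 of 11 genes were higher. In Glutoborin it summed to 1408 against 1248 CPM, with 0 higher. The myeloid list of 10 genes summed to 454 against 395 CPM in Vehicle, with 2 higher, and to 379 against 394 CPM in Glutoborin, with 0 of 9 measured higher and Fcgr1 at 0 in the members. Without the cells set apart, 24 of 29 antiviral effectors were higher in Vehicle, where 4.26% of all genes were, and 26 of 30 in Glutoborin, where 6.48% were.

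**Figure D3:**
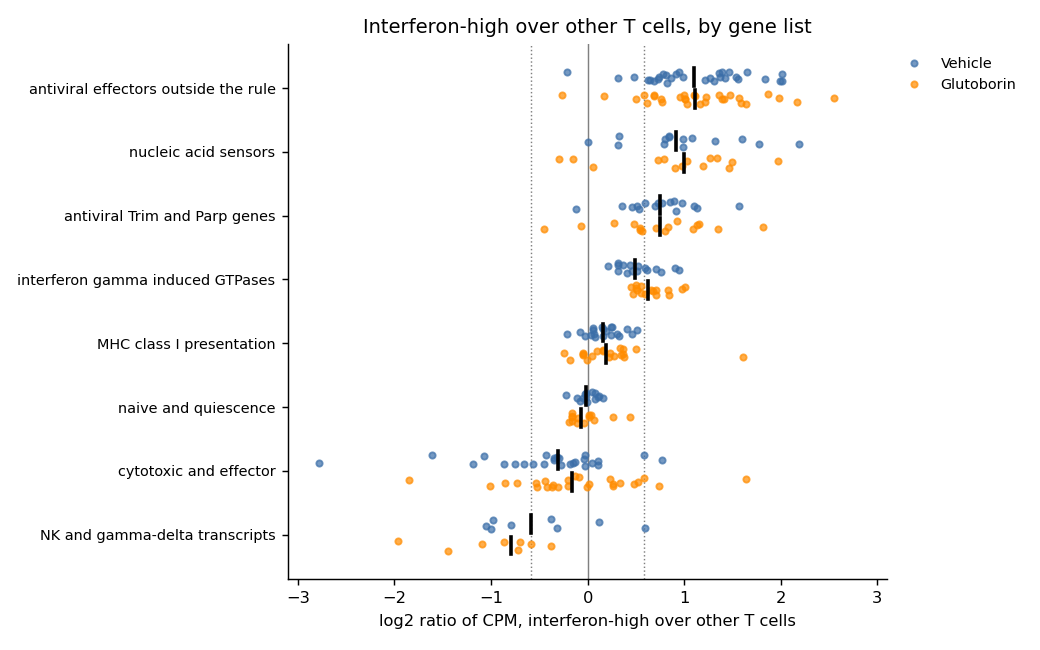
Log2 ratio of CPM in interferon-high over other T cells (x axis) for each measured gene of 8 lists (y axis), Vehicle and Glutoborin; a point is a gene, a black tick the list's median, and dotted lines mark 1.5-fold. Antiviral effectors centre at 1.10 and 1.11, while genes of naive cells centre at -0.01 and -0.07.

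The levels of the effectors outside the rule went up step by step with the number of rule genes, also beneath the limit. In Vehicle their summed level was 3574 CPM in cells with 0 rule genes, 4069, 4821 and 5603 CPM with 1, 2 and 3, 6361 CPM with 4, 7840.2 CPM with 5 and 12205 CPM with 6 to 8. In Glutoborin the levels were 2742, 3135, 3796, 4165, 5386, 6226 and 7100.3 CPM. At each number of rule genes the Glutoborin cells stood under the Vehicle cells, with intervals that did not overlap. The GTPases went from 1654 CPM at 0 genes to 4281 CPM at 6 to 8 in Vehicle, and from 1316 to 3558 CPM in Glutoborin. Per cell, the median at 6 to 8 genes was 112 effector UMIs per 10000 in Vehicle and 70.8 in Glutoborin. Without the cells set apart, 7 of 134 and 1 of 25 at that number, the summed levels were 12642 and 7101 CPM.

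**Figure D4:**
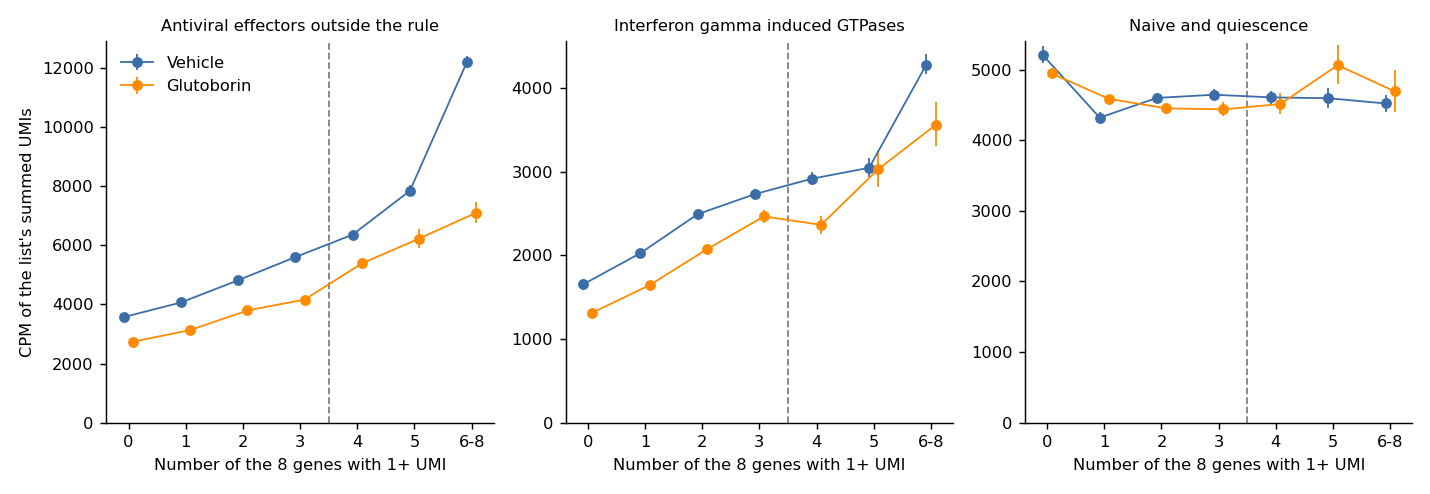
Summed level (y axis, CPM) of gene lists by the number of rule genes found in a cell (x axis), for Vehicle and Glutoborin T cells; bars are 95% Poisson intervals and the dashed line marks the limit of 4 genes. Antiviral effectors outside the rule go from 3574 to 12205 CPM in Vehicle and from 2742 to 7100.3 CPM in Glutoborin.

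The members of the libraries were then compared with each other. Among 8584 genes with at least 30 UMIs, 5.62% were higher and 9.31% lower in the Glutoborin members, with a median log2 ratio of -0.04. In the other T cells the shares were 3.67% and 2.76% of 11004 genes, from sums that hold many more UMIs.

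Antiviral genes were lower in the Glutoborin members, by about as much as in the other T cells. Of 30 measured effectors outside the rule, 1 was higher and 13 lower at 1.5-fold, with a median of -0.48. In the other T cells 1 was higher and 11 lower, with a median of -0.49. Ifi27l2a, the most abundant of them, stood at 1762 CPM in the Glutoborin members and 2811 CPM in the Vehicle members, a log2 ratio of -0.67 (-0.74 to -0.61), beside -0.71 in the other T cells. Oasl2 stood at 111 against 196 CPM, a ratio of -0.83, beside -1.10. Slfn5 had -0.88 in the members and -0.48 in the other T cells. Ifit2, an RNA-binding relative of Ifit1, stood at 28.9 against 70.7 CPM, -1.29 (-1.83 to -0.79), beside -0.25 (-0.50 to -0.0040). Ifitm1, the effector that was higher, stood at 17.6 against 5.83 CPM, a ratio of 1.60 beside 1.56, from few cells. It came from 4 of 155 Glutoborin members (19 of 22 UMIs in 1 cell) and 5 of 495 Vehicle members, and 10 of the other Glutoborin T cells held 131 of 147 UMIs.

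Sensors had 0 of 14 higher and 4 lower, with a median of -0.39 in the members and -0.46 in the other T cells. The 16 GTPases had 0 higher and 0 lower, with medians of -0.32 and -0.40, and the 20 class I genes 0 and 0, with -0.10 and -0.16. Genes of naive cells had 0 of 14 on either side and medians of 0.00 and 0.02. Ccr7 stood at 196 against 201 CPM.

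**Figure D5:**
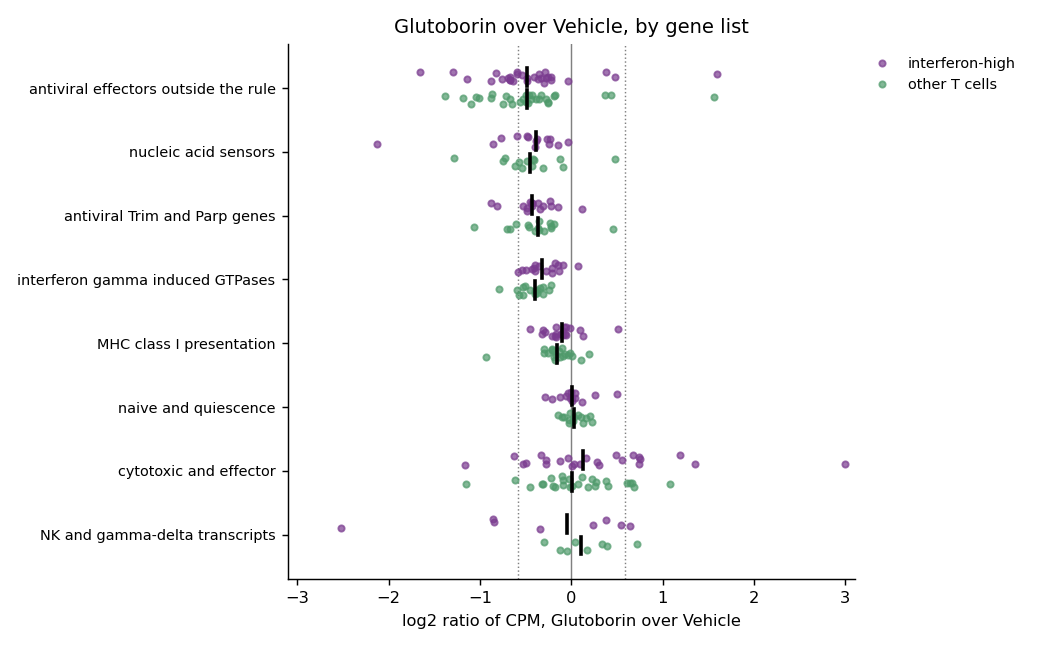
Log2 ratio of CPM, Glutoborin over Vehicle (x axis), for each measured gene of 8 lists (y axis), in interferon-high and other T cells; a point is a gene, a black tick the list's median, and dotted lines mark 1.5-fold. The median of the antiviral effectors is -0.48 in interferon-high and -0.49 in other T cells, and that of naive genes is 0.00 and 0.02.

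The gap in effectors was smaller among cells just inside the limit. Among cells with exactly 4 of the 8 genes, 256 in Vehicle and 98 in Glutoborin, the effectors had 2 of 29 higher and 4 lower and a median of -0.23, where 6.9% of all 7149 measured genes were higher and 11.1% lower. The rule's own genes had a median of -0.09 there. Ifi27l2a still stood at 1767 against 2360.5 CPM, a ratio of -0.42 (-0.50 to -0.33), while Isg15 had -0.15 (-0.35 to 0.05) and Bst2 (tetherin) 0.06 (-0.14 to 0.26).

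The genes that were lowest in the Glutoborin members included chemokines. Cxcl10, the ligand of Cxcr3 and itself interferon-induced, stood at 16.8 against 97.4 CPM, a log2 ratio of -2.53 (-3.24 to -1.90), beside -0.77 in the other T cells. It was found in 83 of 495 Vehicle members and 13 of 155 Glutoborin members, and 10 cells held 56.9% of its Vehicle UMIs. The ratio was -2.22 without the cells set apart. Xcl1 stood at 17.6 against 78.0 CPM, -2.14 (-2.84 to -1.52), beside -0.07 (-0.17 to 0.04) in the other T cells, and at -1.86 without the cells set apart. Few members held an Xcl1 UMI, 54 of 495 in Vehicle and 9 of 155 in Glutoborin, with 22 UMIs in Glutoborin. Cd69, an early activation and retention receptor, had -0.85 in the members and -0.69 in the other T cells. Ifng (interferon gamma) stood at 15.2 against 34.2 CPM, -1.17 (-1.94 to -0.47), beside -0.62. Its UMIs lay in 44 of 495 Vehicle members and 8 of 155 Glutoborin members, where 1 cell held 8 of 19 UMIs.

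Several other low genes belong to B cells or antigen-presenting cells. Cd74, the class II invariant chain, stood at 354 against 766 CPM, and H2-Aa at 162 against 337 CPM. The cells set apart held 62.8% of the Vehicle members' Cd74 UMIs and 70.9% of their H2-Aa UMIs, partly because class II genes set some of them apart. The ratios of Cd74 and H2-Aa without these cells are not reported here. With no Cd79a or Lyz2 UMI allowed, H2-Aa had 0.094. Igkc had -1.10 in the members and -1.04 in the other T cells. Of the B-cell list, 9 of 11 genes were lower in the members and 3 of 11 in the other T cells, with medians of -1.06 and -0.39. Per cell the gap was alike in both sets. The list's median per cell was 988 CPM in Glutoborin against 1584 CPM in Vehicle members, and 983 against 1625 CPM in the other T cells. The part of these transcripts in the lower antiviral genes was not tested. Without the cells set apart, where 4.39% of all genes were higher and 8.52% lower, the effectors had 1 of 30 higher and 10 lower and a median of -0.48.

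The genes that were highest in the Glutoborin members came mostly from single cells. The cell of 83291 UMIs held 241 of 242 UMIs of Car1, a carbonic anhydrase, and 124 of 131 of Mt1 and 88 of 88 of Mt2, metallothioneins that bind zinc. The same cell held 115 of 128 UMIs of Car2 and 76 of 91 of Blvrb. The neutrophil genes S100a8 and S100a9 had log2 ratios of 2.51 and 2.29, beside 2.45 and 2.09 in the other T cells. One member held 75 of the 100 UMIs of S100a8. In the other Glutoborin T cells 2 of 2462 cells held 1222 of 1562 S100a8 UMIs and 1005 of 1508 S100a9 UMIs. The neutrophil list of 4 genes summed to 228 CPM in the Glutoborin and 43.7 CPM in the Vehicle members, none at 0, with a median of 0 per cell in both. Its part in these ratios was not tested. With the cells set apart left out, Ccl5 stood at 1131 against 510.0 CPM, a ratio of 1.15 beside 0.64 in the other T cells, and Rsad2 at 84.0 against 161 CPM, a ratio of -0.94. With no Cd79a or Lyz2 UMI allowed in a T cell, S100a9 had -1.20 and Ccl5 -0.54.

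Gzma, a granule protease, stood at 398 CPM in the Glutoborin members and 155 CPM in the Vehicle members, a log2 ratio of 1.36 (1.18 to 1.53). In the other T cells it stood at 285 against 355 CPM, -0.32 (-0.38 to -0.25). The 4 richest Glutoborin members held 249, 155, 38 and 31 of the 496 UMIs. Without the cells set apart the ratio was 0.84, and with no Cd79a or Lyz2 UMI allowed it was -0.69. Without the 10 richest cells of each set it was -1.42. That removal took 10 of 23 Glutoborin members with a Gzma UMI but 10 of 118 in Vehicle. Under it 6 genes were higher and 2996 lower between the libraries, so the value cannot tell a lower level from the uneven removal. Gzmb, at 93.8 against 41.0 CPM, had 1.19 in the members and -1.16 in the other T cells. It was found in 11 of 155 Glutoborin members, and 69 of its 117 UMIs came from the cell of 26430 UMIs that also led Gzma. Its ratio in the members without the cells set apart was 0.44 (-0.073 to 0.94), under 1.5-fold.

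The members also differed among themselves by lineage. Cells with Cd8b1 and no Cd4 (220 in Vehicle, 81 in Glutoborin) were set against cells with Cd4 and no Cd8b1 (130 and 35). The CD8-type members were the deeper, at medians of 7892.5 against 6033.5 UMIs in Vehicle and 7354 against 5525 in Glutoborin. A deeper cell reaches 4 detected genes at a lower level, and the part of depth in the differences was not tested. The same contrast in the other T cells is not given here, so no lineage difference below is shown to be particular to the members. Of 7121 genes in Vehicle 9.28% were higher and 11.1% lower in the CD8-type members, and of 3942 in Glutoborin 16.4% and 15.0%.

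CD4-type members carried more of the interferon transcripts. In Vehicle 5 of the 8 rule genes were lower in the CD8-type members, with a median of -0.67, and in Glutoborin 5 of 7 measured, with -0.73. Isg15 stood at 577 CPM in CD8-type against 950 CPM in CD4-type members of Vehicle (log2 ratio -0.72, -0.85 to -0.59), and at 402 against 665 CPM in Glutoborin (-0.73, -1.02 to -0.43). Ifi27l2a stood at 2361 against 4003 CPM and 1394 against 2531 CPM. Of the effectors outside the rule 2 of 29 were higher and 6 lower in Vehicle, and 0 of 26 and 14 in Glutoborin, with medians of -0.37 and -0.63. Ly6a stood at 622 against 1520 CPM in Vehicle and 526 against 1053 CPM in Glutoborin.

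CD8-type members carried more of the effector genes. Of the cytotoxic list 12 of 22 were higher and 1 lower in Vehicle, and 12 of 17 and 2 in Glutoborin. Nkg7 had log2 ratios of 2.30 and 1.95, and Klrd1, a chain of the CD94 receptor, 2.13 and 2.12. Ly6c2, an antigen of memory CD8 cells, stood at 1061 against 73.1 CPM and 1038 against 50.8 CPM. Its relative Ly6c1 was higher in the CD4-type members, with ratios of -4.58 and -3.53, and Izumo1r (folate receptor 4) had -2.16 and -3.55. Of 14 cell cycle genes 7 were higher in the CD8-type members of Vehicle, and all 13 measured in Glutoborin, where only 5 of the 155 members held a UMI of Mki67, a proliferation marker.

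The contrast of members with other T cells was similar in both lineages. Among CD4-type cells 25 of 29 effectors outside the rule were higher in the Vehicle members, where 6.77% of all genes were, and 24 of 29 in the Glutoborin members, where 12.4% were. Among CD8-type cells the counts were 25 of 29 beside 5.36% and 22 of 29 beside 12.8%. Between the libraries, effectors were lower in the Glutoborin members for 7 of 27 in CD4-type cells (median -0.25, 14.9% of all genes lower) and 14 of 29 in CD8-type cells (-0.58, 10.5%). The difference between the lineages was not tested.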

How the data were processed

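The deposited files hold whole-number counts, UMIs per gene and barcode, 1 matrix per library, with the barcodes the authors deposited. The matrix header names Cell Ranger 6.1.2, per the file headers. Cell Ranger 6.0.1, Seurat 4.3.0 and mm10 are listed per the submitters' processing notes; the versions disagree. Feature IDs matched GENCODE M21 in 32235 of 32285 cases.

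Cells were chosen with at least 300 genes, 500 UMIs and under 10% mitochondrial UMIs, and by the marker rule given above. The members, gene lists and comparisons were chosen with earlier results of these data known. UMIs were summed per library and cell set and divided by all UMIs of that set (CPM). Log2 ratios carry exact intervals for a ratio of 2 Poisson counts, and shares carry Clopper-Pearson intervals, both at 95%. No p-value was computed, since each group is 1 library. PCR duplicates are removed by UMIs, but cells of 1 library are not replicates, and intervals cover counting error only. Genes with 30 or more UMIs over both sums were compared, and at least 1.5-fold counted as higher or lower. Each cell was thinned to 2000 UMIs with a fixed seed where detection was compared. Doublets were called with Scrublet (scanpy 1.11.5) and kept. The ratios were tested on simulated data.

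Genes were named by rule: the 8 chosen genes, up to 6 measured members of each list, and the top genes of each comparison with at least 50 CPM in the higher sum, ordered by the bound of the interval that lies closest to equality (12 a side for members against other T cells, 10 for the libraries, 8 for CD8 against CD4). Some genes of the lists are counted but not reported by name here. Cd69, Ifng, Gzmb, H2-T24 and some other list members were named after their values were seen. Python 3.11.15, numpy 2.4.6, scipy 1.17.1 and pandas 2.3.3 were used. Alternatives covered the number of genes, the mitochondrial limit, doublets, a stricter gate, thinning, scaling, the UMI minimum, lineages and the richest cells.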

Additional observations from a re-analysis of the deposited data

Results flagged for a closer look

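Gzma differed between interferon-high and other T cells in its direction between the libraries. Its log2 ratio of Glutoborin over Vehicle was 1.36 in the interferon-high cells and -0.32 in the other T cells. The difference of these ratios was not tested, since each group is 1 library. Of the 496 Gzma UMIs in the Glutoborin members, 249 and 155 came from 2 cells, and the ratio was 0.84 without cells of over 20000 UMIs or many class II UMIs. It reversed to -0.69 with no Cd79a or Lyz2 UMI allowed and to -0.95 in Cd4-positive cells alone. Without the 10 richest cells of each set it was -1.42. That removal took 10 of 23 Glutoborin but 10 of 118 Vehicle members with a Gzma UMI, and so lowers the ratio by its construction. Gzmb had 1.19 and -1.16, but 69 of its 117 Glutoborin UMIs came from 1 cell, and without the cells set apart its ratio in the members was 0.44.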

How the results depend on the processing

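The lower share of interferon-high cells in Glutoborin kept its direction under each alternative tried. With 3 of 8 genes the shares were 44.5% (Vehicle) and 14.6% (Glutoborin), log2 ratio -1.61, with 535 genes lower in members than in other T cells in Glutoborin and 471 lower in Glutoborin than in Vehicle members. With 5 of 8 genes the shares were 12.4% and 2.18% (-2.51) and the Cd8b1 share in Vehicle 55.6%; 841 genes were lower in members in Vehicle, 1244 higher and 2023 lower in Glutoborin, and Blvrb between libraries was -0.80. With no Cd79a or Lyz2 UMI allowed, the Glutoborin share was 4.80%, 652 and 1750 genes were lower in members in Vehicle and Glutoborin, 283 were higher in Glutoborin than in Vehicle members, and ratios reversed for S100a9 (-1.20), Gzma (-0.69), Ccl5 (-0.54), H2-Aa (0.094) and H2-Ab1 (0.39). With thinning before gate and rule the shares were 5.49% and 0.788% (-2.80), the Cd4 share in Vehicle 20.8%, and the Cd8b1 shares 35.6% and 15.0%.

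Against 536 higher and 359 lower genes in Vehicle members, 818 and 1134 in Glutoborin members and 482 and 799 between libraries, a minimum of 100 UMIs gave 243 and 113, 423 and 559, and 111 and 261, since fewer genes were compared. With 1 UMI in each sum there were 1939 and 1021 in Vehicle, 1935 higher in Glutoborin, and 1785 and 1530 between libraries. In Cd4-positive cells alone 622 and 1744 genes were lower in members. Between libraries these cells gave S100a9 -1.38, Gzma -0.95, Atpif1 -1.43, Ccl5 -0.18, S100a6 -0.80, Cd74 0.88, Ifitm3 0.17, H2-Aa 1.20 and H2-Ab1 1.25. Leaving out the 10 richest cells of each gene in each set, which takes a larger share of the smaller set, gave 141 and 1403, 59 and 6349, and 6 and 2996. It reversed Ifitm3 in Glutoborin members over other T cells (-0.20) and, between libraries, S100a8 (-0.44), S100a9 (-1.66), Blvrb (-0.68), Vamp5 (-1.48), Gzma (-1.42), Atpif1 (-0.33), Ccl5 (-0.40), Klrk1 (-0.87) and S100a6 (-1.65). Without the cells set apart Blvrb was -0.077. Beyond the constructions stated, the cause was not tested.

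No paired analysis was possible because each group is 1 library and no test was made. The Glutoborin members, at 155 cells, give the wider intervals.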

Other observations

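After thinning to 2000 UMIs, Ccr7 was detected in 34.7% of the Vehicle members and 31.3% of the other Vehicle T cells, and in 36.1% and 30.5% in Glutoborin. Cd44, a receptor of antigen-experienced cells, was detected in 3.64% and 4.75% in Vehicle and in 2.58% and 5.73% in Glutoborin. The Glutoborin members' Cd44 value came from 4 of 155 cells (0.708 to 6.48%), an interval that overlaps that of the other T cells (4.84 to 6.73%). Cd69 was detected in 36.2% and 32.7% in Vehicle and in 21.3% and 22.7% in Glutoborin. Trdc, the gamma-delta T-cell receptor constant gene, was detected in 1.41% and 1.99% in Vehicle and in 1.29% and 2.87% in Glutoborin. The Glutoborin members' Trdc value came from 2 of 155 cells (0.157 to 4.58%), an interval that overlaps that of the other T cells (2.24 to 3.61%).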
